A study of Homo sapiens with 6 samples.

Results

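The retinoblastoma proteins, the E2F transcription factors and the DP proteins that pair with E2Fs were followed as a set of 10 genes, namely RB1, RBL1, RBL2, E2F1, E2F2, E2F3, E2F7, E2F8, TFDP1 and TFDP2. They were taken by symbol from count tables of 64253 genes, and all 10 had enough reads to be tested among 16439 genes. RNA came from PC-3, an established human prostate cancer cell line, stably carrying either an shRNA against CdGAP (shCdGAP, 3 libraries) or a control shRNA (shCon, 3 libraries). CdGAP is a protein that switches off the small GTPases Rac1 and Cdc42, and is encoded by ARHGAP31. According to the methods, CdGAP-depleted PC-3 cells were selected with puromycin and grown as single-cell clones, which is not stated for the control cells, so an effect of the shRNA and a difference between a clone and its parents cannot be told apart here. The libraries held 33182796 to 43154039 counted reads. ARHGAP31 had 1072, 1181 and 926 reads in shCdGAP replicates 1, 2 and 3 and 2472, 2557 and 1923 reads in shCon replicates 1, 2 and 3. Its log2 fold change, shCdGAP over shCon, was -1.14 (edgeR adjusted p = 8.75e-08), which leaves 45.3% of the control level. The cell line markers KRT8, KRT18, EPCAM and VIM were at 81.7 CPM (reads of a gene scaled to a common library size) or more in every library. KRT8 and KRT18 did not pass the test described below, whereas EPCAM (2.55-fold, edgeR adjusted p = 5.02e-08) and VIM (1.83-fold, edgeR adjusted p = 1.85e-06) were higher in shCdGAP cells. KLK3, KLK2 and FOLH1, markers of other prostate lines, had no reads in any library. In a comparison with counting noise, shCdGAP replicate 2 stood apart from the other shCdGAP libraries (chi-square per degree of freedom 27.2 and 33.3, against 2.59 to 6.94 for the other pairs within a group), and values without it are given beside the results whose calls it changes.

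In G1 phase, RB1 and its relatives p107 (RBL1) and p130 (RBL2) bind E2F factors and hold E2F target genes silent. Cyclin D and cyclin E kinases phosphorylate these pocket proteins, E2F is released, and genes for DNA replication are switched on. E2F1, E2F2 and E2F3 are activators that bind DNA together with a DP partner, TFDP1 or TFDP2. E2F7 and E2F8 are atypical members that repress E2F targets without a DP partner. Loss of RB1 is a frequent event in advanced prostate cancer. Several genes of this set are themselves known E2F targets, E2F1 and RBL1 among them.

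Promoter windows were read from a RefSeq table (GRCh38.p14), which held at least 1 window for 9 of the 10 genes, E2F8 having no entry. The only window for RB1 lay 172699 bases inside the gene as the count tables place it, so it was searched with the others but is not printed. The E2F letters TTTCCCGC, TTTGGCGC, TTTCGCGC and TTTGCCGC were searched on both strands in windows of 300 bases, and no matches overlapped in these genes. A match was found in 5 of the 9 genes (55.6%), namely E2F1, E2F2, E2F3, RBL1 and TFDP1, against 6.35% of 11490 tested genes and 3.99% of all 27305 genes with a window. A match is a description of the sequence and not a bound site. The stretches below, from 130 bases before to 20 bases after the start, are printed because they show where the matches lie in the genes whose levels are reported next, with E2F7 as a gene with no match. Sequences run from 5′ to 3′ on the gene's strand, and capitals mark the matches.
E2F1, chr20:33686366-33686515, minus strand: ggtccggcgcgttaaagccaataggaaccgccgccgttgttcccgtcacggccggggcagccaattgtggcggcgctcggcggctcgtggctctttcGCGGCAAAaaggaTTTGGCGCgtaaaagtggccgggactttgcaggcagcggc
E2F2, chr1:23531214-23531363, minus strand: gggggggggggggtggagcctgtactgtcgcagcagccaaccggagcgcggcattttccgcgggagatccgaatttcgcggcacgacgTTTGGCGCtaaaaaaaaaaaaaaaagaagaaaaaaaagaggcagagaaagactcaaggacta
E2F3, chr6:20401749-20401898, plus strand: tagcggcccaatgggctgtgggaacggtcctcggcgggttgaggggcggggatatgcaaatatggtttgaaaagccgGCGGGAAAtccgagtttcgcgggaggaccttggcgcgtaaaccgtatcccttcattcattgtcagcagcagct
RBL1, chr20:37095978-37096127, minus strand: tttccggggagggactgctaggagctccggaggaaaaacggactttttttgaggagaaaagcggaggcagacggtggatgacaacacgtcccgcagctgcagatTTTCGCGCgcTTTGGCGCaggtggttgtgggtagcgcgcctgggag
TFDP1, chr13:113584623-113584772, plus strand: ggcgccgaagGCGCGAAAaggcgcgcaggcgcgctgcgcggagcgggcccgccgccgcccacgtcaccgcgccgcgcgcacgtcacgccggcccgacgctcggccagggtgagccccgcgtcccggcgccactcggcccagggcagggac
E2F7, chr12:77065550-77065699, minus strand: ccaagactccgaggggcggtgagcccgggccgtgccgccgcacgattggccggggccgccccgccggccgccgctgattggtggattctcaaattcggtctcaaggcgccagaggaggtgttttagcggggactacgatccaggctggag
RBL1 held TTTCGCGC and TTTGGCGC at 26 and 16 bases before its start. E2F1 held TTTGGCGC at 20 bases before its start and GCGGCAAA, the other-strand form of TTTGCCGC, at 33 bases. The matches of E2F2, E2F3 and TFDP1 began 42, 53 and 120 bases before the start. RBL2 and TFDP2 had no match in any of their windows.

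Of the 10 genes, 4 fell in shCdGAP cells (TFDP1, RB1, E2F2 and E2F3), 2 rose (E2F8 and E2F7) and 4 did not pass the test (RBL1, E2F1, RBL2 and TFDP2), by edgeR's quasi-likelihood test at an adjusted p-value under 0.01. Among all tested genes, 22% fell and 24.1% rose at this threshold, against 4 of 10 and 2 of 10 here. With the additional limit of an absolute log2 fold change above 1, only TFDP1 and RB1 remained, both lower, against 4.19% of all genes below -1 and 8.56% above 1. These are the 2 members on chromosome 13. Of the 8 members on other chromosomes, 2 fell and 2 rose, none past the fold limit. The shCdGAP and shCon libraries did not overlap for 8 of the 10 genes, as for 67.1% of all genes. A difference in level cannot be separated here into less RNA per cell and fewer cells that express a gene.

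**Figure D1:**
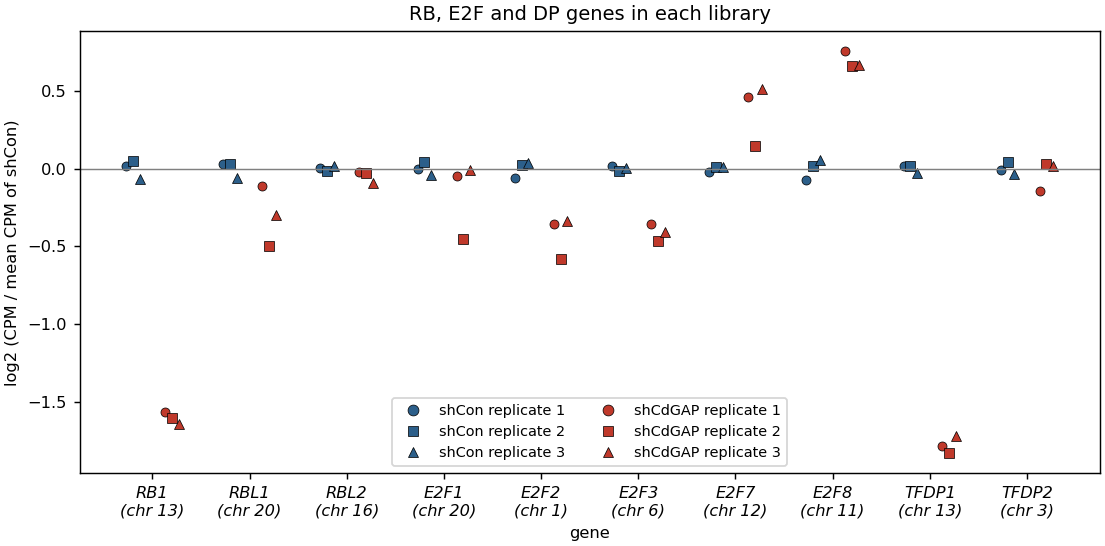
Level of each gene in each library as the log2 ratio of its CPM to the mean CPM of the 3 shCon libraries (vertical axis), for the 10 genes with their chromosomes (horizontal axis); blue marks are shCon and red marks shCdGAP libraries, with a shape for each replicate. RB1 and TFDP1 lie far below the control level in all 3 shCdGAP libraries, and E2F8 lies above it in all 3. The mark of shCdGAP replicate 2 (red square) is the lowest shCdGAP mark for RBL1, E2F1, E2F2, E2F3, E2F7, E2F8 and TFDP1.

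RB1, the retinoblastoma tumour suppressor (ENSG00000139687, GRCh38 chromosome 13 from 48303751 to 48481986, plus strand), had 1096, 1144 and 880 reads in shCdGAP replicates 1, 2 and 3 and 3380, 3475 and 2517 in the shCon replicates. These were 27.0, 26.3 and 25.6 CPM against 80.6, 82.3 and 76.2 CPM. All 3 shCdGAP libraries were lower than every control library. The mean was 26.3 ± 0.714 CPM in shCdGAP and 79.7 ± 3.17 CPM in shCon cells (SD, n = 3 each). The log2 fold change of RB1, shCdGAP over shCon, was -1.60 ± 0.0464 (standard error, SE; edgeR adjusted p = 3.17e-08), which leaves 33.0% of the control level. LPAR6, which encodes a lysophosphatidic acid receptor, lies inside RB1 on the opposite strand, and counting was strand-specific.

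The other pocket proteins did not pass the test. RBL1 (p107, ENSG00000080839, chromosome 20 from 36996349 to 37095995, minus strand) was at 42.0, 32.1 and 36.8 CPM in the shCdGAP replicates and at 46.3, 46.2 and 43.5 CPM in the shCon replicates. All 3 shCdGAP libraries lay below the controls, with replicate 2 the lowest. Its log2 fold change was -0.30 (95% interval -0.50 to -0.09, adjusted p = 0.0189 by edgeR), short of the threshold. It passed in 4 of 14 alternatives, among them DESeq2 (adjusted p = 0.00374) and the fits without shCdGAP replicate 1 (log2 fold change -0.41, adjusted p = 0.00183) and without shCdGAP replicate 2 (-0.21, adjusted p = 0.000222). RBL2 (p130, ENSG00000103479, chromosome 16 from 53433977 to 53491649, plus strand), the pocket protein of resting cells, was at 70.6, 70.4 and 67.3 CPM against 71.9, 70.9 and 72.4 CPM. Its log2 fold change was -0.05, with a 95% interval of -0.13 to 0.04 (adjusted p = 0.308 by edgeR), so a change of the size seen for RB1 lies outside the interval. The libraries of the groups did not overlap for RBL2, although the gap was small against the spread.

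TFDP1, the main DP partner of E2Fs (ENSG00000198176, chromosome 13 from 113584721 to 113641470, plus strand), had 2529, 2634 and 2247 reads in the shCdGAP replicates and 9106, 9144 and 6925 in the shCon replicates. These were 62.4, 60.5 and 65.4 CPM against 217, 217 and 210 CPM, with no overlap. Control cells held 214 ± 4.19 CPM and shCdGAP cells 62.7 ± 2.47 CPM (SD, n = 3 each). TFDP1 fell with a log2 fold change of -1.77 ± 0.0406 (SE, edgeR adjusted p = 1.28e-08), which is 29.2% of the control level. This was the largest change among the 10 genes.

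TFDP2, the alternative DP partner (ENSG00000114126, chromosome 3 from 141951147 to 142149544, minus strand), was at 9.57, 10.8 and 10.7 CPM in shCdGAP cells and at 10.5, 10.9 and 10.3 CPM in control cells. The groups overlapped. Its log2 fold change was -0.03 (95% interval -0.21 to 0.14, adjusted p = 0.748 by edgeR), and it was 0.01 without shCdGAP replicate 1. An unnamed gene on the same strand (ENSG00000269905) overlaps its 3′ part with 1474 to 1857 reads per library. Reads in shared exons are counted for neither gene, so the level of TFDP2 is measured less completely.

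Of the activators, E2F3 and E2F2 fell and E2F1 did not pass the test. E2F3 (ENSG00000112242, chromosome 6 from 20401906 to 20493715, plus strand) was at 67.8, 62.8 and 65.3 CPM in the shCdGAP replicates and at 87.6, 85.7 and 87.0 CPM in the shCon replicates. It fell by 0.41 ± 0.0403 log2 units (SE, edgeR adjusted p = 3.13e-05), to 75.2% of control, with no overlap and in all 14 alternatives. E2F2 (ENSG00000007968, chromosome 1 from 23506430 to 23531220, minus strand) was low, with 227 to 263 reads in shCdGAP and 282 to 356 in shCon libraries. Its levels were 6.49, 5.56 and 6.60 CPM against 7.99, 8.44 and 8.54 CPM. It fell by 0.42 ± 0.0941 log2 units (SE, edgeR adjusted p = 0.00416), to 74.6% of control. Without shCon replicate 1, 2 or 3 its adjusted p was 0.0117, 0.0179 and 0.0179, past the limit of 0.01 in none of the 3.

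E2F1, the best studied activator (ENSG00000101412, chromosome 20 from 33675487 to 33686404, minus strand), was at 60.0, 45.3 and 61.7 CPM in shCdGAP replicates 1, 2 and 3 and at 62.1, 63.8 and 60.4 CPM in shCon replicates 1, 2 and 3. Only shCdGAP replicate 2 lay clearly below the controls, and the groups overlapped. The log2 fold change was -0.16 (95% interval -0.41 to 0.10, adjusted p = 0.245 by edgeR), and -0.04 without that library (adjusted p = 0.322). E2F1 passed in none of 14 alternatives, whose lowest adjusted p was 0.0139.

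The atypical repressors moved the other way. E2F8 (ENSG00000129173, chromosome 11 from 19224063 to 19241620, minus strand) had 690, 693 and 550 reads in the shCdGAP replicates and 402, 431 and 346 in the shCon replicates, that is 17.0, 15.9 and 16.0 CPM against 9.58, 10.2 and 10.5 CPM. Every shCdGAP library lay above every control. It rose by 0.69 ± 0.0672 log2 units (SE, edgeR adjusted p = 2.84e-05), 1.62-fold, and passed in all 14 alternatives. E2F7 (ENSG00000165891, chromosome 12 from 77021247 to 77065580, minus strand) was at 112, 90.0 and 116 CPM against 80.2, 82.3 and 82.2 CPM. It rose by 0.38 ± 0.0885 log2 units (SE, edgeR adjusted p = 0.00650), 1.30-fold, with shCdGAP replicate 2 nearest to the controls. Without that library the log2 fold change was 0.48 (adjusted p = 1.77e-17). The call was lost when any other single library was left out, with adjusted p of 0.0234 without shCdGAP replicate 1, 0.0164 without shCdGAP replicate 3, and 0.0311, 0.0261 and 0.0265 without shCon replicates 1, 2 and 3.

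Compared per length, as CPM per kilobase of exon, TFDP1 had the highest level of the 10 genes in control cells (57.3 ± 1.12, SD, n = 3). E2F1 (23.0 ± 0.614), E2F3 (16.8 ± 0.198), E2F7 (12.9 ± 0.190), RB1 (12.9 ± 0.514), RBL2 (9.80 ± 0.101) and RBL1 (7.61 ± 0.266) followed. E2F8 (2.44 ± 0.111), TFDP2 (2.04 ± 0.0616, without reads in shared exons) and E2F2 (1.52 ± 0.0537) were lowest. Of these neighbours only E2F7 and RB1 had overlapping libraries. In shCdGAP cells the order began with E2F1 (20.6 ± 3.34), E2F7 (16.9 ± 2.25) and TFDP1 (16.8 ± 0.661), neighbours whose libraries overlapped. RB1 (4.26 ± 0.116) came after RBL2 (9.48 ± 0.248) and RBL1 (6.21 ± 0.826), and next to E2F8 (3.94 ± 0.148). RB1 thus went from rank 5 to rank 7, and TFDP1 from rank 1 to rank 3.

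**Figure D2:**
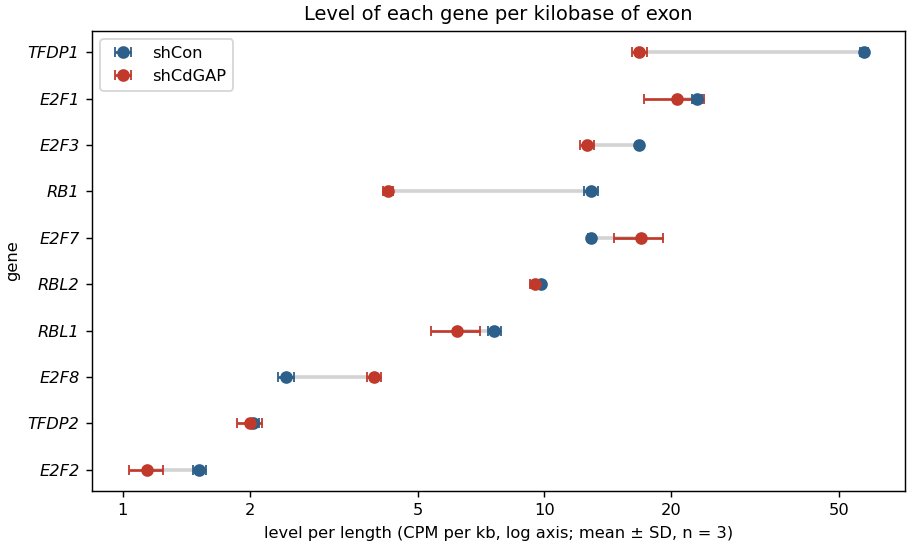
Level of each gene per kilobase of exon (horizontal log axis, CPM per kb) in shCon (blue) and shCdGAP (red) cells, as the mean ± SD of 3 libraries, ordered by the control level. The grey bars joining the groups are longest for TFDP1 and RB1, and TFDP2 and RBL2 sit at almost the same level in both groups.

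The make-up of each family was then compared as a share of its summed level per length, which does not depend on library scaling. RB1 made up 42.6, 43.3 and 41.8% of the 3 pocket proteins in the shCon replicates and 20.8, 22.1 and 21.2% in the shCdGAP replicates. The means were 42.6% ± 0.775 and 21.4% ± 0.661 (SD, n = 3 each; exact two-sided permutation p = 0.1, the smallest that 3 against 3 libraries allow). TFDP1 made up 96.6% ± 0.0649 of the DP genes in control and 89.3% ± 0.723 in shCdGAP cells (n = 3 each, exact p = 0.1). The summed DP level was 59.4 ± 1.17 CPM per kilobase in control and 18.8 ± 0.686 in shCdGAP cells (SD), with TFDP2 counted lower than TFDP1 in every library. Reads of TFDP2 in exons shared with ENSG00000269905 are left out. The TFDP2 level may therefore be understated and the TFDP1 share overstated, by an amount that was not measured.

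E2F1 made up 55.6% ± 0.863 of the activators in control and 59.7% ± 3.28 in shCdGAP cells (SD, n = 3 each, exact permutation p = 0.2), and the groups overlapped. E2F7 made up 84.2% ± 0.430 of the atypical E2Fs in control and 80.9% ± 1.96 in shCdGAP cells (SD, n = 3 each, exact permutation p = 0.1). A further share was formed after the values were seen, that of E2F7 and E2F8 in the summed level of E2F1, E2F2, E2F3, E2F7 and E2F8. It was 37.5, 37.7 and 37.8% in the shCdGAP replicates and 26.6, 27.1 and 27.6% in the shCon replicates. Replicate 2 of shCdGAP did not stand apart in this share, although E2F1 and E2F7 were each lowest in it.

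**Figure D3:**
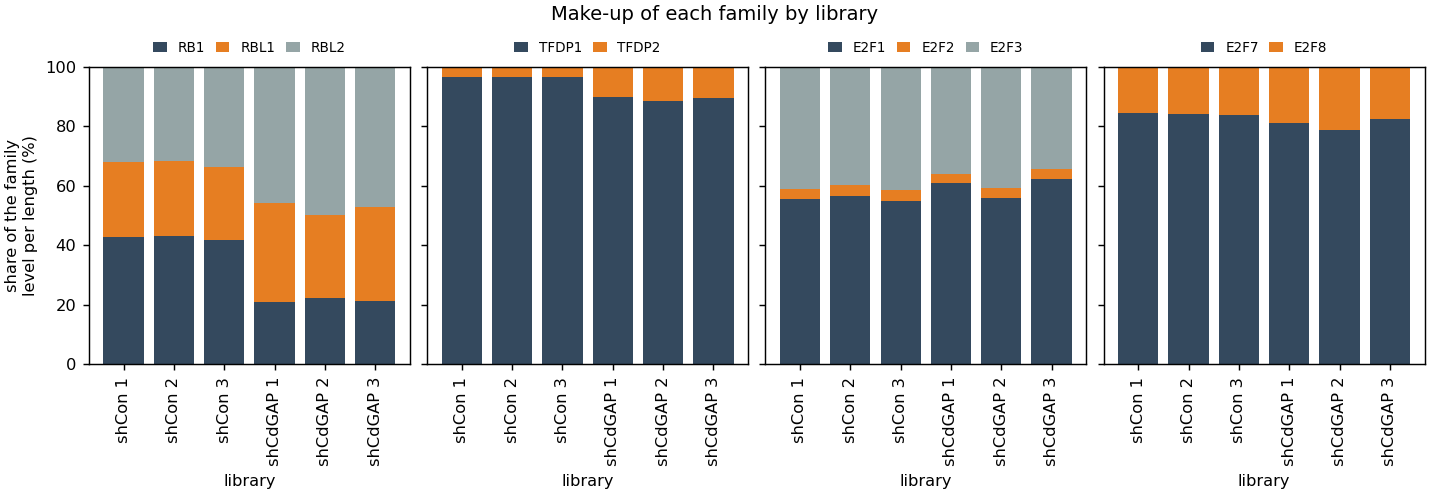
Share of each gene in the summed level per length of its family (vertical axis, percent, bars add to 100) in each of the 6 libraries, for the pocket proteins, the DP genes, the activator E2Fs and the atypical E2Fs. The RB1 share is 41.8 to 43.3% in the shCon and 20.8 to 22.1% in the shCdGAP libraries, and TFDP2 takes a larger share in every shCdGAP library than in any shCon library.

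The members also differed in how much the shCdGAP libraries varied. The coefficient of variation of CPM was 16.2% for E2F1, 13.3% for RBL1, 13.3% for E2F7, 9.24% for E2F2 and 6.66% for TFDP2, and from 2.62% (RBL2) to 3.94% (TFDP1) for the other 5 genes. In control cells it was at most 4.54%. Replicate 2 was the lowest shCdGAP library for 7 of the 10 genes, against 41.6% of all tested genes. RB1 and RBL2 were lowest in replicate 3 and TFDP2 in replicate 1.

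Of all tested genes, 22% fell and 24.1% rose. RB1 and TFDP1 lie on chromosome 13, where 193 of 271 tested genes fell and 16 rose, and the median log2 fold change was -0.99. The 5 tested genes nearest to each on either side were therefore set beside them. Beside RB1, 8 of 10 genes fell by edgeR and none rose, also at an unadjusted p under 0.05, and the median log2 fold change was -1.44. On the side nearer to the chromosome start these included LINC00562 (-3.04, at low counts), SUCLA2 (-1.91), MED4 (-1.83) and ITM2B (-0.67). SUCLA2 encodes a subunit of succinyl-CoA ligase, and MED4 a subunit of the Mediator complex. On the other side by start coordinate these were LPAR6 (-1.56, inside RB1), RCBTB2 (-1.31) and FNDC3A (-1.03). The pseudogene PSME2P2 (-0.26, adjusted p = 0.474 by edgeR) and the unnamed ENSG00000275202 (-0.37, adjusted p = 0.167) did not pass, with group means of at most 1.53 CPM. The value of RB1 lay inside this range, with 4 of the 10 genes lower. The nearest gene by start, ITM2B at 70.6 kb before the start of RB1, was at a mean of 63.6 CPM in shCdGAP and 102 CPM in shCon cells.

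Beside TFDP1, 8 of 10 genes fell by edgeR and none rose, at an unadjusted p under 0.05 9 were lower and none higher, and the median log2 fold change was -1.54. Before it lay ADPRHL1 (-1.60), DCUN1D2 (-1.73), TMCO3 (-1.36) and the unnamed ENSG00000278309 (0.22, adjusted p = 0.616 by edgeR) and ENSG00000276248 (-1.01, adjusted p = 0.0199), both unnamed genes with group means of at most 0.419 CPM. After it lay TMEM255B (-1.15), GAS6 (-1.96), RASA3 (-1.86), CDC16 (-1.48) and UPF3A (-1.62). CDC16 encodes a subunit of the anaphase-promoting complex, and RASA3 a GTPase-activating protein. Of the 10 genes, 2 had lower values than TFDP1. Whether the change of RB1 and TFDP1 is separate from that of their neighbours was not tested.

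**Figure D4:**
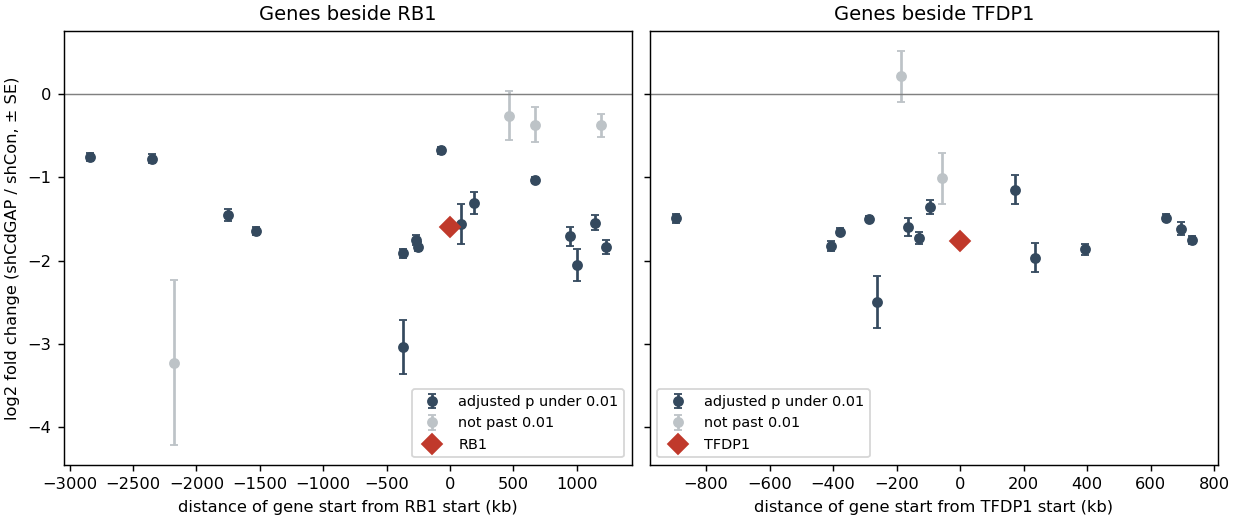
Log2 fold change (vertical axis, shCdGAP over shCon, ± standard error) of RB1 and TFDP1 (red diamonds) and of up to 10 tested genes on each side, by the distance of the gene start in kb (horizontal axis); dark points passed an adjusted p of 0.01 and grey points did not. All 20 genes beside RB1 and 15 of the 16 beside TFDP1 lie below 0, and both diamonds lie within the range of their neighbours.

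The genes whose pattern over the 6 libraries was most like that of RB1, by Euclidean distance of centred log2 CPM, were BIVM (distance 0.0521), CUL4A (0.113) and ESD (0.126), all 3 on chromosome 13. Those most like TFDP1 were TUBGCP3 (0.0630) and MED4 (0.0898) on chromosome 13 and AMOTL2 (0.117) on chromosome 3. CUL4A encodes a scaffold of ubiquitin ligases and TUBGCP3 a subunit of the gamma-tubulin complex. The measure rests on 6 libraries, 3 of each group, so it largely follows the fold change. In the order named, log2 fold changes were -1.65, -1.65 and -1.64 for the genes like RB1. For those like TFDP1 they were -1.81, -1.83 and -1.80. Chromosome 13 holds 271 of the 16439 tested genes.

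Of the other E2F and DP genes, 1 of 3 tested passed, against 46.2% of all tested genes in either direction. E2F4, which pairs with pocket proteins in resting cells, fell by 0.27 ± 0.0413 log2 units (SE, edgeR adjusted p = 0.000431), with 92.3 ± 1.28 CPM in control and 76.3 ± 3.18 CPM in shCdGAP cells (SD, n = 3 each). E2F5 (log2 fold change 0.04, adjusted p = 0.399) and E2F6 (-0.09, adjusted p = 0.322) did not pass. TFDP3 had no read in any library. Of the MuvB core, which joins p107 or p130 and E2F4 in the DREAM repressor complex, and MYBL2, which replaces them later in the cycle, none of the 6 genes passed at 0.01 by edgeR, 2 were lower at an unadjusted p under 0.05, and none passed by DESeq2. Their log2 fold changes were -0.14 for LIN9, 0.36 for LIN37, -0.24 for LIN52, -0.16 for LIN54, 0.05 for RBBP4 and -0.09 for MYBL2. LIN52 came nearest (adjusted p = 0.0172 by edgeR). Without shCdGAP replicate 2, LIN52 passed as lower (adjusted p = 0.00599) and RBBP4 as higher (adjusted p = 0.00168).

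Over all tested genes, 22% fell and 24.1% rose. Of 15 genes for the kinases and cyclins that phosphorylate RB and their inhibitors, 14 were tested, 5 fell and 5 rose. The lowest values were those of the E-type cyclin CCNE2 (log2 fold change -1.01, adjusted p = 0.000323 by edgeR), the inhibitor CDKN1B (p27, -0.58, adjusted p = 0.000118) and the kinase CDK4 (-0.36, adjusted p = 2.35e-05). The highest were those of the inhibitors CDKN1C (2.05, adjusted p = 0.00139), CDKN2B (1.34, adjusted p = 0.00140) and CDKN1A (1.18, adjusted p = 2.86e-06). CDKN1C was low, at 1.76 ± 0.851 CPM in shCdGAP and 0.426 ± 0.0226 CPM in shCon cells (SD, n = 3 each). When genes with few reads were kept in the fit, the call of CDKN2B was lost (edgeR adjusted p = 0.0163). The others that passed, named after their values were seen, were CDK6 (-0.33) and CDK2 (-0.27), which fell, and CDKN2D (1.03) and CDKN2C (0.21), which rose. CDK2 did not pass when shCon replicate 1, 2 or 3 was left out (edgeR adjusted p of 0.0114, 0.0177 and 0.0115). CDKN2C did not pass without shCdGAP replicate 1 (edgeR adjusted p = 0.0279), nor without shCon replicate 1, 2 or 3 (0.0352, 0.0328 and 0.0401). CCND1 (0.11), CCND3 (0.00), CCNE1 (-0.18) and CDKN2A (-0.29), the last encoding p16, did not pass. CDKN2A was at 126, 186 and 118 CPM in the shCdGAP replicates and at 173, 175 and 178 CPM in the shCon replicates, so that replicate 2 alone lay above the controls. Without that library 6 genes of the list fell and 6 rose, while of all 16727 genes tested 5022 fell and 5013 rose. CDKN2A then passed as lower (log2 fold change -0.53, edgeR adjusted p = 1.39e-19) and CCND1, which encodes cyclin D1, as higher (0.12, edgeR adjusted p = 2.63e-05).

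By edgeR at an adjusted p under 0.01, 22% of all tested genes fell and 24.1% rose. Of 39 genes known as E2F targets, all were tested, 28 fell and none rose by edgeR. At an unadjusted p under 0.05 none was higher, and by DESeq2 30 fell and none rose. The median log2 fold change of the 39 was -0.37 by edgeR, against 0.01 for all tested genes. A promoter match to the E2F letters was present in 20 of the 35 with a window (57.1%). DTL, which encodes a ubiquitin ligase adaptor that acts on CDT1, was at 150 ± 6.53 CPM in control and 76.1 ± 9.78 CPM in shCdGAP cells (SD, n = 3 each). It fell with a log2 fold change of -0.98 ± 0.0887 (SE, edgeR adjusted p = 3.94e-05). UHRF1, a partner of DNA methyltransferase 1, fell by 0.94 log2 units (edgeR adjusted p = 7.15e-05), with 152 ± 2.06 CPM in control and 79.3 ± 11.2 CPM in shCdGAP cells (SD, n = 3 each). The replication helicase subunit gene MCM7 fell by 0.62 on the log2 scale (adjusted p = 1.24e-05) and MCM10 fell by 0.59 (adjusted p = 0.000908). Grouped after their values were known, 6 of 7 MCM genes fell, with log2 fold changes of the 7 from -0.62 to -0.37 (MCM5, adjusted p = 0.0164, did not pass). Without shCdGAP replicate 2, MCM5 passed as lower (log2 fold change -0.25, edgeR adjusted p = 1.42e-08). Of the genes of nucleotide synthesis, RRM1 (-0.26), RRM2 (-0.34), TYMS (-0.24) and TK1 (-0.20) fell. The highest values belonged to CLSPN (0.07), CHEK1 (0.05), GINS1 (0.01) and POLA2 (0.01), with adjusted p of 0.832, 0.439, 0.951 and 0.950, and the groups overlapped for each. CLSPN and CHEK1 act in the replication checkpoint.

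The median log2 difference of the 39 targets from the shCon mean was -0.27, -0.57 and -0.29 in shCdGAP replicates 1, 2 and 3, and between -0.03 and 0.02 in the shCon replicates. All 3 shCdGAP libraries were thus lower, replicate 2 the most, and it was the lowest shCdGAP library for 36 of the 39 genes. Without replicate 2, 30 of the 39 fell and 1 rose, CLSPN (log2 fold change 0.30, adjusted p = 5.71e-07 by edgeR), and the median was -0.30. Without shCon replicate 1, 18 passed as lower, with a median of -0.38. Lower calls over all tested genes moved the same way. They numbered 3624 with all libraries, 5022 without shCdGAP replicate 2 and 2834 without shCon replicate 1.

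**Figure D5:**
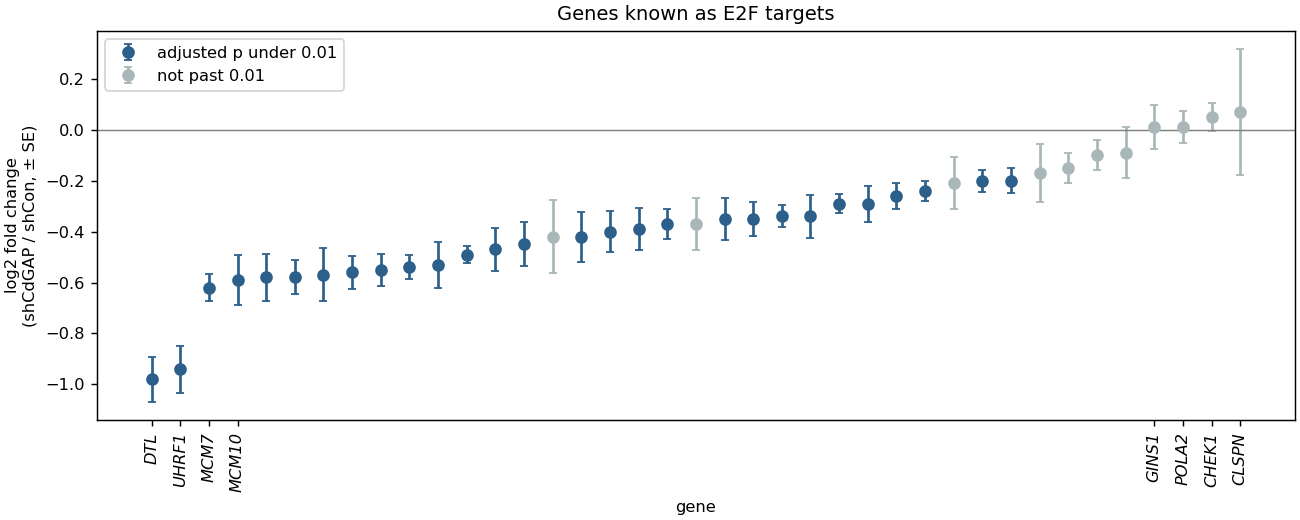
Log2 fold change (vertical axis, shCdGAP over shCon, ± standard error) of the 39 genes known as E2F targets, ordered by value (horizontal axis, with the 4 lowest and 4 highest named); blue points passed an adjusted p of 0.01 and grey points did not. DTL and UHRF1 lie lowest near -0.98 and -0.94, and the 4 genes above 0 are all grey.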

How the data were processed

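Reads were aligned by the authors to GRCh38 with STAR 2.5.1b, and the deposited tables hold raw counts per gene, without normalization. Per the file headers, featureCounts 1.6.0 counted strand-specific read pairs on Ensembl release 77 (the methods name 1.4.6 and a single-read kit). Symbols matched 56105 of 64253 IDs. The groups were compared with edgeR 4.0.16 under R 4.3.3: genes with few reads were dropped by filterByExpr, libraries were scaled by TMM, and a robust quasi-likelihood test without a block was adjusted by Benjamini-Hochberg over 16439 genes. DESeq2 1.42.0 was an alternative. Standard errors are the absolute log2 fold change over the root of F. CPM used TMM-scaled library sizes. Libraries of the same group differed by more than counting noise, with a chi-square per degree of freedom of 2.59 to 33.3. Shares were compared with scipy 1.17.1. The code was tested on simulated counts. Members and lists were chosen with earlier results of these data known. Text names all members, the smaller lists, the extremes of the longer lists, 5 neighbours a side and the 3 most alike genes. The methods call the 3 samples per group independent, without saying whether from separate cultures, so p-values measure the spread between these samples. Same-numbered libraries were not taken as pairs. Some genes of these lists are not reported here. Other scalings and filters, a replicate block and leaving out each library were tried.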

Additional observations from a re-analysis of the deposited data

How the results depend on the processing

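RB1, TFDP1, E2F3 and E2F8 passed, in the same direction, under all 14 alternatives: DESeq2, 3 other scalings of the libraries, TMM without chromosome 13, 2 other filters on low counts, the replicate number as a block and the omission of each library. With each library left out, 3 to 5 members were lower and 1 to 2 higher, E2F2 ranged from -0.48 to -0.35, E2F7 from 0.30 to 0.48, RBL1 from -0.41 to -0.21 and TFDP2 from -0.08 to 0.01 on the log2 scale, 18 to 30 E2F targets were lower and 0 to 1 higher, and 0 to 1 MuvB genes moved in each direction. RBL1 passed with DESeq2 (log2 fold change -0.31) and without a filter on low counts (-0.29), and without that filter 1 MuvB gene was lower. The fall in the TFDP1 share was -9.48 percentage points when counted in reads rather than per length, against -7.23. Under the replicate block, 25 of 39 E2F targets were lower and no member's call changed; RB1 stayed at -1.60 and TFDP1 at -1.77. The deviations of same-numbered libraries correlated at 0.0464, 0.0666 and 0.0670, and those of differently numbered libraries at -0.114 to 0.0502. The cause of the changed calls was not tested. With 3 libraries a group, exact tests of shares cannot go below 0.1.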
